A study of Tupaia belangeri with 15 samples.

Results

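S-cones of the tree shrew (TS, Tupaia belangeri) retina were taken from single-nucleus RNA sequencing of 15 retinas, with 5 samples each labelled Infancy, Mature and Senile. The labels name no strain, age in numbers or treatment for any group, and the study obtained the senile TSs from another supplier than the infancy and mature TSs, so stage and supplier cannot be told apart in any comparison with the senile group. The files hold raw UMI counts (unique molecular identifiers, 1 per captured RNA molecule) of 120437 barcodes, and 119765 nuclei were kept, those with a gene number above 200 and below 6000 and a mitochondrial share of counts below 5%. S-cones were selected on their own readout: a nucleus had 3 or more UMIs of OPN1SW, the short-wave opsin, at least 2 of the 5 cone genes ARR3, PDE6H, PDE6C, CNGB3 and GNAT2, and no UMI of GAD1, GAD2 or CLUL1. This rule found 192 S-cones, 0.160% of all nuclei, in 13 of the 15 retinas. The values of these genes are therefore given as a description; the fit across all features below included them, and no test of theirs is used.

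The TS is a dichromat with a cone-rich retina. S-cones carry OPN1SW and respond to short wavelengths, whereas L-cones carry OPN1LW and respond to long wavelengths. In other mammals the thyroid hormone receptor encoded by THRB is required for long-wave opsin, and cones without it take up the short-wave opsin. S-cones contact their own type of ON bipolar cell, so genes of cell adhesion and synapse assembly are of interest beside those of the light response. For comparison, L-cones were chosen in the same way with 3 or more OPN1LW UMIs and no OPN1SW UMI (6782 nuclei), and rods by 3 or more CLUL1 UMIs and a UMI of PDE6A or PDE6B (1098 nuclei).

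S-cones had a median of 7894 UMIs and 3074 genes per nucleus, against 5008.5 UMIs in L-cones and 2917 in all nuclei. These medians pool retinas of unlike depth. In Infancy 4 and 5, Mature 1, 3 and 4, and Senile 1 and 5, S-cone medians were 8913, 9341, 3959, 8958.5, 6967, 3488 and 8967.5 UMIs. L-cone medians of the same retinas were 8909, 9496, 3841.5, 8728, 7364.5, 3259 and 7779 UMIs. The median S-cone held 4 OPN1SW UMIs and the highest 15. Of the cone genes that the rule read, ARR3, the cone arrestin, had a UMI in 100% of S-cones, PDE6H, the inhibitory subunit of the cone phosphodiesterase, in 92.2%, PDE6C, its catalytic subunit, in 93.2%, and GNAT2, the cone transducin, in 97.9%. All 4 of these genes were present together in 165 of the 192 nuclei, which the rule fixed in part and which is no check of the label. SLC24A2, the cone exchanger, which the rule did not read, had 2200 to 2545 CPM (counts scaled to a common total) in the S-cones of the 7 retinas used for gene tests below and a mean of 373 CPM in rods. CNGB3 and GAD2 were listed at 0 UMIs in all nuclei and GAD1 never exceeded 2 UMIs, so these genes decided little in the rule. Of the 194 nuclei with 3 or more OPN1SW UMIs, 2 were left out, both for a CLUL1 UMI. No barcode was shared by S-cones of different retinas, although 5 S-cones had a barcode that also occurred among the other nuclei of another retina. A comparison with simulated doublets marked 22 S-cones (11.5%), 13.5% of L-cones and 6.63% of all nuclei. Over the same 7 retinas, the summed level of the 7 rod markers ranged from 0 to 34.9 CPM in S-cones and from 19.5 to 39.3 CPM in L-cones. In all nuclei it was 20.2 to 97.8 CPM, which overlapped S-cones, and 2 of the 7 markers were at 0 in every nucleus. The summed level of the 6 amacrine markers ranged from 77.1 to 473 CPM in S-cones, 182 to 366 CPM in L-cones and 1402 to 1874 CPM in all nuclei, with 1 marker at 0 in every nucleus. The 7 bipolar markers ranged from 38.6 to 520 CPM in S-cones, 176 to 509 CPM in L-cones and 1023 to 1957 CPM in all nuclei. Of these 7, 3 were at 0 in S-cones and none was at 0 in every nucleus. The 5 Mueller markers ranged from 38.6 to 223 CPM in S-cones and 385 to 637 CPM in all nuclei, the 6 ganglion markers from 0 to 31.2 CPM and 29.8 to 284 CPM, and the 4 microglia markers from 0 to 8.90 CPM and 10.7 to 18.6 CPM. The 4 horizontal cell markers also overlapped all nuclei, with 126 to 222 CPM in S-cones, 223 to 334 CPM in L-cones and 135 to 266 CPM in all nuclei. Of these 4, only CALB1, calbindin, was high enough to be tested between the cone types, and its own levels are given below. The 4 astrocyte markers ranged from 0 to 105 CPM in S-cones, the highest in a mature retina, from 6.20 to 19.0 CPM in L-cones and from 52.6 to 83.6 CPM in all nuclei. The part of these classes in the results was not tested.

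The threshold of 3 UMIs left out many nuclei that resembled S-cones in genes the rule did not read. Among nuclei that met every other part of the rule, 73 had exactly 3 OPN1SW UMIs and 123 had exactly 2. Just inside the threshold, SAG, the arrestin of rods, stood at 2374 CPM, THRB at 83.6 CPM and OPN1LW at 60.0 CPM in the pooled nuclei. The 33 nuclei with 4 OPN1SW UMIs did not continue the step, with SAG at 2103 CPM, THRB at 147 CPM and OPN1LW at 131 CPM. Just outside it, SAG stood at 2160 CPM, THRB at 294 CPM and OPN1LW at 197 CPM. With 1 OPN1SW UMI (316 nuclei) the levels were 1760 CPM for SAG, 305 CPM for THRB and 216 CPM for OPN1LW, and with 0 OPN1SW UMIs (26729 nuclei) they were 76.3, 548 and 330 CPM in the same order. At least 3 SAG UMIs were present in 83.2% of the nuclei with 1 OPN1SW UMI and in 2.84% of those with none. The 192 nuclei are thus the S-cones with the most OPN1SW RNA captured, and hold 57.4% of the 1638 OPN1SW UMIs of the series.

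**Figure D1:**
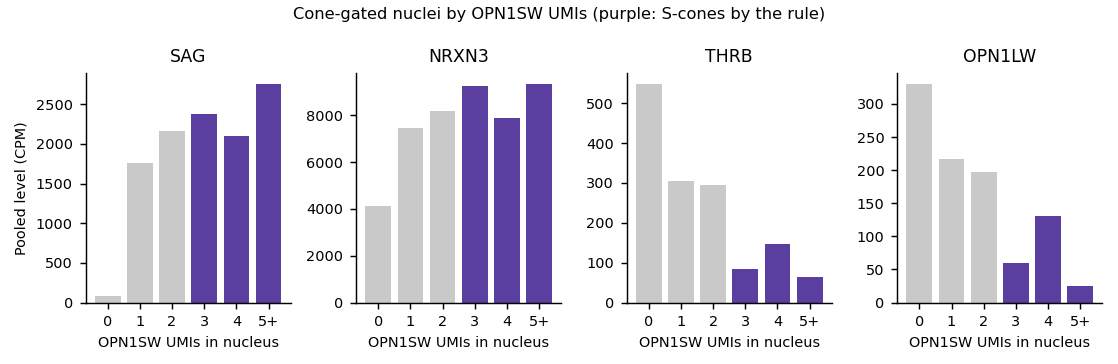
Bars give the pooled level (CPM, linear axis from 0) of SAG, NRXN3, THRB and OPN1LW in nuclei that met the cone part of the rule, split by their OPN1SW UMIs (0 to 4 and 5 or more). SAG rises from 76.3 CPM in nuclei with 0 OPN1SW UMIs to 2374 CPM in those with 3, whereas THRB falls from 548 to 83.6 CPM; purple bars are the S-cones by the rule.

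The number of S-cones differed widely between retinas and did not differ detectably between stages. The 5 infancy retinas gave 5, 4, 0, 42 and 13 S-cones, the mature retinas 23, 4, 30, 21 and 2, and the senile retinas 12, 1, 9, 0 and 26. As a share of S-cones and L-cones together, S-cones made up 2.73% ± 2.62 (SD, n = 5) in infancy, 3.39% ± 3.26 (SD, n = 5) in mature and 1.99% ± 2.28 (SD, n = 5) in senile retinas, and the 3 stages overlapped. The differences were -0.738 points for senile minus infancy, 0.657 points for mature minus infancy and -1.40 points for senile minus mature, each with an adjusted p of 0.722 (2-sided exact permutation of retinas, adjusted over the 3 comparisons, smallest possible p 0.00794). Infancy 3, with 0 of 184 cones, allows a share of up to 1.63%, and Senile 4, with 0 of 145, up to 2.07%, taking 3 counts as the limit of a count of 0 (counting error only). The highest share, 8.94% in Mature 4, had a 95% Wilson interval from 5.92 to 13.3%. The share also differed with the depth and the Cell Ranger version of the library, and their part in it was not tested. The retinas of each version also form a separate group in the order of deposit. Version can therefore not be told apart from other differences between these groups. Retinas whose file headers name Cell Ranger 6.1.2 had at most 2.29%, and those naming 7.0.1 ranged from 0 to 8.94%; L-cone nuclei had median totals of 1981 to 3841.5 UMIs in the former and 4079 to 11696 UMIs in the latter. Within version 6.1.2 the mean shares were 1.08% in 3 infancy, 1.22% in 2 mature and 0.943% in 2 senile retinas, and within 7.0.1 they were 5.21% in 2, 4.84% in 3 and 2.69% in 3. When every nucleus was thinned to 1000 UMIs and 1 opsin UMI was asked for, leaving out 2356 infancy, 2016 mature and 3533 senile nuclei that were shallower, the shares were 3.19% ± 1.76, 3.71% ± 2.13 and 2.70% ± 1.20 (SD, n = 5 each). The differences without 1 retina are given in the closing section, since Infancy 3, Infancy 4 and Mature 4 each decide a sign: without Infancy 4 the senile minus infancy difference was 0.248 points.

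**Figure D2:**
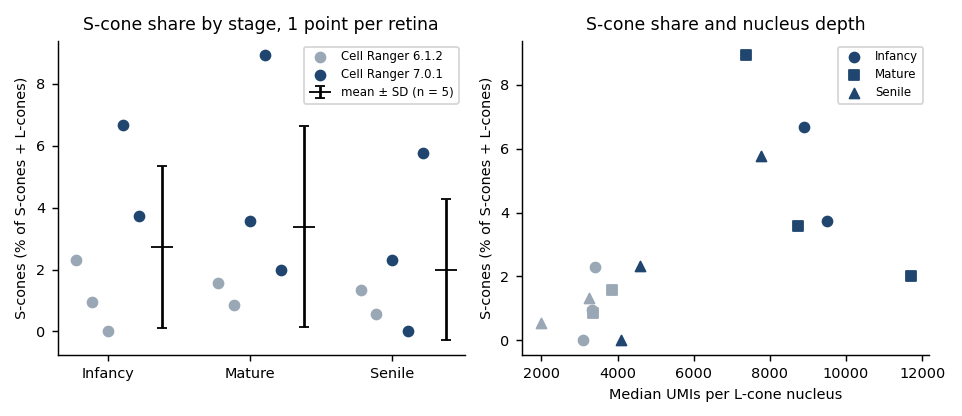
The left panel gives S-cones as percent of S-cones and L-cones, 1 point per retina and coloured by Cell Ranger version, with the mean ± SD of the 5 retinas of each stage; the right panel sets the same share against the median UMIs per L-cone nucleus, with the stage as the point's shape. The stages overlap, and all 7 retinas of version 6.1.2 lie at or below 2.29%.

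OPN1LW was rare in S-cones. Of the 192 nuclei, 163 had no OPN1LW UMI, 20 had 1 or 2 and 9 had 3 or more. The 9 nuclei with 3 or more UMIs of both opsins had a median of 10898 UMIs, above the S-cone median of 7894, and 1 of them was marked as a simulated doublet. Free RNA can put UMIs into any nucleus, so amacrine nuclei (3 or more UMIs of TFAP2A, a transcription factor of amacrine cells) served as a class that should lack OPN1LW. In the 7 retinas with at least 10 S-cones and at 1000 UMIs per nucleus, a mean of 4.65% ± 6.05 (SD, n = 7) of S-cones and 1.72% ± 1.01 (SD, n = 7) of amacrine nuclei had an OPN1LW UMI. The difference of 2.93 points was positive in 4 of 7 retinas and within the spread (exact sign-flip permutation p = 0.328, 2-sided, smallest possible 0.0156). Without thinning the shares were 17.9% ± 9.33 and 8.40% ± 3.64 (exact sign-flip permutation p = 0.0625, n = 7), at median depths of 3488 to 9341 UMIs in S-cones and 3940 to 8210.5 UMIs in amacrine nuclei. Senile 1 was the highest, with 33.3% of its 12 S-cones, and without it the thinned difference was 0.885 points.

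Gene levels in S-cones were compared with those in L-cones of the same retina, to ask what separates the cone types apart from their opsins. The 7 retinas with at least 10 S-cones were Infancy 4 and 5, Mature 1, 3 and 4, and Senile 1 and 5, with 167 S-cones and 4699 L-cones. Counts were summed per retina and cone type and tested with edgeR's quasi-likelihood test, with the retina as a block. Of 12097 features tested, 381 were higher in S-cones (3.15%) and 583 were lower (4.82%) at an adjusted p under 0.05. These counts include genes that the gates read, OPN1SW among the higher and OPN1LW, ARR3, PDE6H, PDE6C and GNAT2 among the lower. The balance of the directions depended on the scaling. DESeq2 called 391 higher and 327 lower, and library size in place of TMM (edgeR's scaling by trimmed mean) called 521 higher and 405 lower. Library size moved the median log2 fold change of all features from -0.08 to 0.04, and small changes that lost their call with it are named below. Among the 381 features that were higher, 205 were of 7728 tested gene symbols and 82 of 880 intergenic noncoding (LINC) features; among the 583 lower, 404 were symbols and 48 LINC. A single feature, LINC-FRMD8-1, took 150018 CPM in S-cones and 174037 CPM in L-cones.

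**Figure D3:**
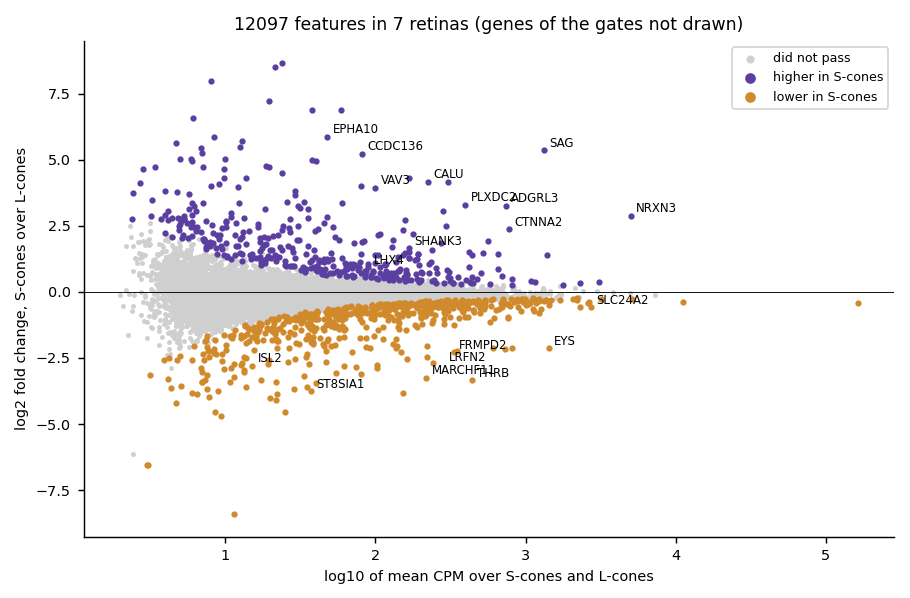
Each point is a tested feature, with the log10 of its mean CPM over S-cones and L-cones on the x axis and its log2 fold change (S-cones over L-cones, edgeR) on the y axis; purple and orange points passed an adjusted p under 0.05, and genes that the gates read are not drawn. SAG and NRXN3 stand out at high level above 0, and THRB and EYS below it.

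SAG, which encodes the arrestin of rods, was high in S-cones and rods and low in L-cones. In S-cones it had a lowest value of 1548, a median of 2487 and a highest value of 3857 CPM over 7 retinas, and in L-cones 26.0, 53.9 and 101 CPM. All 7 retinas were higher in S-cones and the groups did not overlap. The log2 fold change was 5.36 ± 0.10 (SE, edgeR adjusted p = 7.89e-39), 41.2-fold. In rods of the 6 of these retinas with at least 10 rods (Senile 1 had 0), SAG was 2340, 4941, 2710, 3059, 2279 and 2912 CPM, in the order Infancy 4 and 5, Mature 1, 3 and 4, and Senile 5. The mean difference of log2(CPM + 1) was 5.53 between S-cones and L-cones (exact sign-flip permutation p = 0.0156, n = 7, the smallest possible) and -0.224 between S-cones and rods (p = 0.156, n = 6, exact, range of the difference -0.557 to 0.150). Every S-cone had a SAG UMI. At 1000 UMIs per nucleus 89.6% of S-cones, 90.7% of rods, 5.33% of L-cones and 1.46% of amacrine nuclei had one.

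Among other rod genes, SLC24A1 was also higher in S-cones, and most were too low to be tested. Of the 11 genes of rod phototransduction, 3 were listed at 0 in all nuclei, 4 were tested, 2 passed as higher (SAG and SLC24A1) and none as lower, beside 3.15% of all features higher and 4.82% lower; the list's median log2 fold change was 1.26, against -0.08 for all features. SLC24A1, the rod sodium, calcium and potassium exchanger, had 0, 19.5 and 38.6 CPM (lowest, median, highest) in S-cones, 1.28, 3.10 and 7.11 CPM in L-cones and a mean of 287 CPM in rods, a log2 fold change of 2.62 ± 0.46 (SE) that rests on 29 UMIs. GNAT1, the rod transducin, had 3 UMIs in all S-cones of these retinas, PDE6B, a rod phosphodiesterase subunit, also 3, and NRL and NR2E3, the transcription factors that set the rod fate, 1 and 4 UMIs. In rods GNAT1 had a mean of 132, PDE6B of 827, NRL of 287 and NR2E3 of 891 CPM. PDE6A, the other catalytic subunit, had 10.5 CPM in S-cones, 17.3 CPM in L-cones and 1499 CPM in rods.

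Cone phototransduction genes outside the rule were level with or below L-cones. Of 18 genes listed, 16 were in the files, 7 of these were at 0 in all nuclei, 8 were tested, none was higher and 5 were lower, OPN1LW among them by choice of the L-cones, beside 3.15% of all features higher and 4.82% lower. The list's median log2 fold change was -0.52, against -0.08 for all features. SLC24A2, the cone exchanger, had in S-cones 2200, 2283 and 2545 CPM (lowest, median, highest) and in L-cones 2887, 3230 and 3327 CPM, with no overlap and a log2 fold change of -0.59 ± 0.07 (SE, edgeR adjusted p = 3.47e-09). GRK7, the kinase that phosphorylates cone opsin, had a log2 fold change of -0.56 ± 0.10 (SE) and RCVRN, recoverin, of -0.63 ± 0.10 (SE). RGS9, which speeds the shut-off of transducin, passed at -0.25 ± 0.08 (SE) but kept its call in 7 of 17 alternative settings, library size and DESeq2 not among them. For the genes that the rule read, the same contrast is given with no test: ARR3 had a mean of 2908 CPM in S-cones and 5410 CPM in L-cones, PDE6H 704 and 849 CPM, PDE6C 645 and 854 CPM and GNAT2 1009.5 and 1122 CPM.

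**Figure D4:**
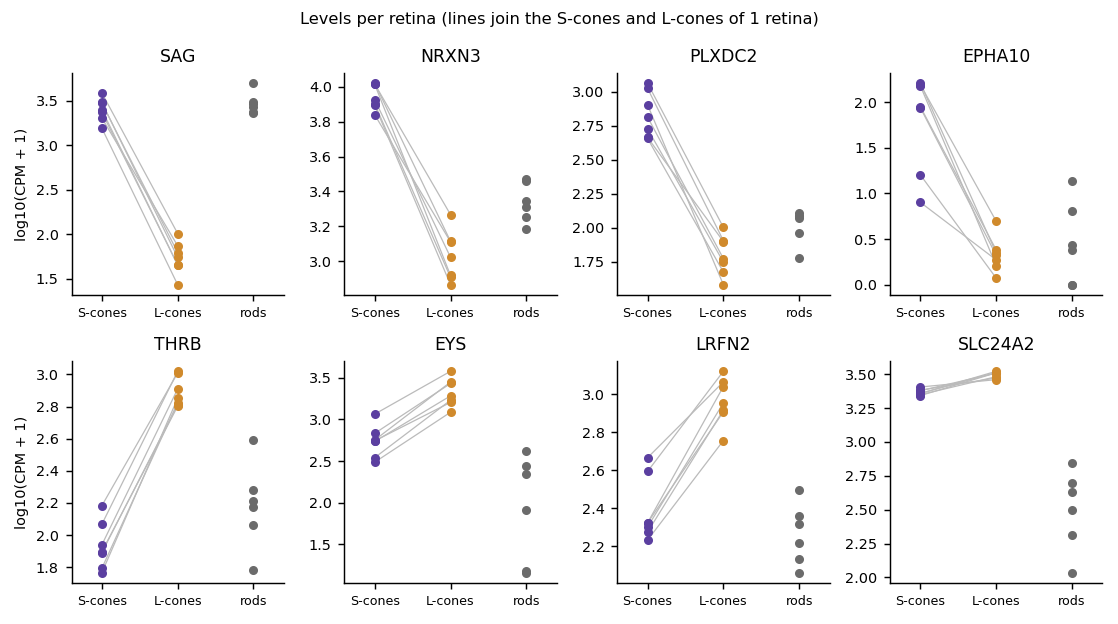
Points give log10(CPM + 1) of 8 genes in summed S-cones, L-cones and rods, 1 point per retina (7 retinas, 6 for rods), with lines joining the cones of a retina. In SAG the S-cones lie at the level of rods, in THRB, EYS and LRFN2 they lie below L-cones, and in NRXN3 and PLXDC2 they lie above both other types. In EPHA10 they lie above both within each retina, but S-cones of Infancy 5 (6.99 CPM) lie below rods of Mature 1 (12.6 CPM).

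THRB had the lowest log2 fold change among the 20 transcription factors tested. It had 57.3, 77.7 and 151 CPM (lowest, median, highest) in S-cones and 633, 709 and 1045 CPM in L-cones, lower in all 7 retinas with no overlap. The log2 fold change was -3.34 ± 0.12 (SE, edgeR adjusted p = 8.58e-27), 10.1-fold lower, and rods had a mean of 177 CPM. At 1000 UMIs per nucleus, THRB had a UMI in 4.17% of S-cones, 56.5% of L-cones, 11.5% of rods and 7.89% of amacrine nuclei. The share in S-cones was below that in amacrine nuclei, whose own THRB expression was not tested. Of 15 genes of thyroid hormone signalling, 14 were in the files, 10 were tested, THRB was lower and the other 9 did not pass in either direction, beside 3.15% of all features higher and 4.82% lower, and the list median was -0.20 against -0.08. RXRG, a retinoid receptor that pairs with THRB in cones, had a mean of 143 CPM in S-cones and 124 CPM in L-cones (log2 fold change 0.02 ± 0.14, SE), and THRA 23.6 and 26.3 CPM.

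Among the 27 photoreceptor transcription factors, 20 were tested, 2 were higher in S-cones and 6 lower, beside 3.15% of all features higher and 4.82% lower, and the list's median was -0.19 against -0.08. LHX4, a LIM homeobox factor of bipolar cells and cones, had 67.3, 113 and 222 CPM (lowest, median, highest) in S-cones and 31.6, 51.9 and 92.5 CPM in L-cones, higher in 7 of 7 retinas, with a log2 fold change of 0.93 ± 0.16 (SE). TBX2, which in zebrafish is needed for ultraviolet cones, had 0, 23.7 and 54.3 CPM in S-cones and 5.80, 7.64 and 12.1 CPM in L-cones, higher in 6 of 7 retinas (log2 fold change 1.65 ± 0.34, SE); Senile 1 was the retina with 0. ISL2, another LIM homeobox factor, was at 0 in 4 of the 7 S-cone sums and at most 14.0 CPM, against 20.3 to 42.7 CPM in L-cones (-2.79 ± 0.51, SE). DACH1, a cell fate factor, had a log2 fold change of -0.72 ± 0.08 (SE), NEUROD1 of -0.51 ± 0.12 (SE) and SOX5 of -0.86 ± 0.22 (SE), with the 2 cone types overlapping in each. NEUROD1 kept its call in 15 of 17 alternative settings, SOX5 in 13 and LHX4 in 16. MEF2C passed at -0.28 ± 0.08 (SE) but kept its call in 10 of 17 settings, library size and DESeq2 not among them. CRX, the general photoreceptor factor, had a mean of 166 CPM in S-cones and 153 CPM in L-cones (-0.05 ± 0.13, SE).

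Genes of cell adhesion and synaptic specificity were the longest list and held 13 genes that were higher in S-cones. Of 45 listed genes 38 were tested, 13 were higher in S-cones and 5 lower, a share of 34.2% and 13.2% against 3.15% and 4.82% of all features, with a median of 0.06 against -0.08; the list had been drawn up with earlier results of these data known, so its counts are a description. NRXN3, a presynaptic neurexin, had 6901, 8419 and 10456 CPM (lowest, median, highest) in S-cones and 732, 1052 and 1847 CPM in L-cones, 7.36-fold higher (log2 2.88 ± 0.10, SE, edgeR adjusted p = 4.93e-27). Its level in S-cones was also above the mean of 2227 CPM in rods. ADGRL3, a latrophilin receptor that binds teneurins and FLRT proteins, had 810, 1388 and 1605 CPM in S-cones and 73.8, 124 and 212 CPM in L-cones (3.25 ± 0.11, SE), and its paralog ADGRL2 was higher by 1.40 ± 0.12 (SE). TENM4, a teneurin, was higher by 2.17 ± 0.16 (SE), with 116 to 243 CPM in S-cones and 20.5 to 57.3 CPM in L-cones. CTNNA2, the neuronal alpha-catenin that links cadherins to actin, was higher by 2.37 ± 0.09 (SE), CDH8, a cadherin, by 2.34 ± 0.17 (SE), NTM, neurotrimin, by 1.93 ± 0.10 (SE) and DSCAM, a cell recognition molecule, by 1.43 ± 0.09 (SE). All of these had no overlap between S-cones and L-cones. Lower genes were LRFN2, a synaptic leucine-rich repeat protein, with 170, 210 and 463 CPM in S-cones and 570, 900 and 1321 CPM in L-cones (-2.14 ± 0.10, SE), and TENM1, TENM3, SDK1 and CNTN4. These 4 overlapped between the cone types and each lost its call in 5 or more of 17 alternative settings, with a negative value in all of them. CNTNAP2, among the 13 higher genes, kept its call in 8 of 17 settings.

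PLXDC2, a plexin domain protein, had 453, 652 and 1156 CPM (lowest, median, highest) in S-cones and 37.2, 58.5 and 99.9 CPM in L-cones, a log2 fold change of 3.30 ± 0.12 (SE, edgeR adjusted p = 4.23e-26). VAV3, a guanine nucleotide exchange factor, had 81.5, 168 and 297 CPM in S-cones and 4.49, 11.2 and 16.3 CPM in L-cones (3.93 ± 0.24, SE). PLXDC2, VAV3 and SAG are the genes that the study itself used to mark S-cones in these samples, so their direction is not independent evidence. They separated the types also per nucleus: PLXDC2 had a UMI in 92.2% of S-cones and 17.3% of L-cones, and VAV3 in 63.0% and 4.47%.

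EPHA10, a member of the Eph receptor family that lacks kinase activity, had the largest fold change of the named genes. It had 14.9 and 6.99 CPM in the S-cones of Infancy 4 and 5, 160, 87.9 and 149 CPM in Mature 1, 3 and 4, and 154 and 85.9 CPM in Senile 1 and 5. L-cones had at most 3.95 CPM, and the log2 fold change over all retinas was 5.87 ± 0.36 (SE, edgeR adjusted p = 7.39e-18). The infancy S-cones were lower than all 5 others, but the stage test of EPHA10 did not pass (mature minus infancy 3.11 ± 0.54, SE, edgeR adjusted p = 0.175, senile minus infancy 2.77 ± 0.59, SE, adjusted p = 0.168). Of the 22 Eph receptors and ephrins, 8 were tested, EPHA10 and EFNA5 were higher and none was lower, beside 3.15% of all features higher and 4.82% lower, and the list median was 0.11 against -0.08. EFNA5, an ephrin ligand, had 116, 195 and 299 CPM in S-cones and 65.8, 85.4 and 250 CPM in L-cones (0.56 ± 0.14, SE), with overlap, and kept its call in 12 of 17 alternative settings.

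CCDC136 and CALU lie on either side of OPN1SW in the RefSeq annotation of another TS assembly (TupChi_1.0), with a tRNA gene between CCDC136 and OPN1SW, and both are next to it in the order of the files' features. CCDC136, a coiled-coil protein, had 142, 154 and 196 CPM (lowest, median, highest) in S-cones and 1.86, 3.42 and 6.76 CPM in L-cones, with a log2 fold change of 5.23 ± 0.22 (SE). CALU, calumenin, a calcium-binding protein of the secretory pathway, had 116, 543 and 803 CPM in S-cones, 18.0, 22.0 and 27.1 CPM in L-cones and a mean of 23.3 CPM in rods, with a log2 fold change of 4.17 ± 0.19 (SE). In the nuclei split by OPN1SW UMIs, CALU was 25.9 CPM at 0, 180 CPM at 1, 283 CPM at 2, 414 CPM at 3, 382 CPM at 4 and 546 CPM at 5 or more UMIs. Reads that run past the end of a neighbour, or that fall where genes overlap, could be counted to either gene, so the levels of both are uncertain.

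The rest of the 12 symbols with the largest fold change upward, among 117 that passed, moved the same way in every retina and reached 50 CPM, were C12ORF40, PPP1R36, a regulatory subunit of protein phosphatase 1 (3.80 ± 0.35, SE), XKR7, an XK-related membrane protein (3.40 ± 0.35, SE), NECAB2, a neuronal calcium-binding protein (3.35 ± 0.25, SE), and MEGF10, a receptor with EGF-like domains (3.15 ± 0.29, SE). Their levels in S-cones were low to moderate. Mean CPM in S-cones and L-cones was 73.6 and 2.59 for C12ORF40, 54.7 and 3.33 for PPP1R36, 60.7 and 6.62 for XKR7, 109 and 10.0 for NECAB2, and 64.6 and 6.25 for MEGF10, with no overlap in any of these genes.

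The 12 lower symbols, among 173 that passed the same rule in that direction, were led by ST8SIA1, the sialyltransferase that makes ganglioside GD3. It had 0, 3.90 and 14.0 CPM (lowest, median, highest) in S-cones and 45.9, 60.0 and 118 CPM in L-cones (-3.76 ± 0.36, SE). Next came SBK1, a kinase (-3.46 ± 0.34, SE), THRB, MARCHF11, a ubiquitin ligase of the MARCH family (-3.25 ± 0.17, SE), NPTX1, a neuronal pentraxin (-3.18 ± 0.34, SE), SEMA3E, a secreted semaphorin (-3.06 ± 0.28, SE), and TANC1, a postsynaptic scaffold (-2.87 ± 0.22, SE). MARCHF11 had 12.5, 47.5 and 116 CPM in S-cones and 181, 409 and 523 CPM in L-cones. DTNB, beta-dystrobrevin (-2.53 ± 0.18, SE), PDE8B, a cyclic AMP phosphodiesterase (-2.47 ± 0.19, SE), FRMPD2, a scaffold with FERM and PDZ domains (-2.29 ± 0.14, SE), NHS (-2.29 ± 0.17, SE) and OSBPL6, an oxysterol-binding protein (-2.27 ± 0.22, SE), completed the set. SEMA3E, TANC1 and PDE8B overlapped between the cone types, and the other 9 did not. All 24 symbols kept their call in every alternative setting that tested them, 17 settings in all and 16 for PPP1R36 and NPTX1, which were not tested with L-cones matched on UMIs. In the 25 S-cones of 6 retinas that were too few for the test, pooled levels had the same direction against the pooled L-cones of those retinas for 12 of 12 higher and 12 of 12 lower symbols. The share of all features that kept their direction there was not tested. SAG was 2493 and 116 CPM in these S-cones and L-cones, and THRB 127 and 945 CPM.

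Outer segment and cilium genes were mostly level with L-cones. Of 21 listed genes 18 were tested, none was higher and 5 were lower, beside 3.15% of all features higher and 4.82% lower, and the median was -0.14 against -0.08. EYS, an extracellular matrix protein of photoreceptors, had 306, 552 and 1157 CPM (lowest, median, highest) in S-cones and 1219, 1919 and 3788 CPM in L-cones, 4.39-fold lower (log2 -2.14 ± 0.09, SE, edgeR adjusted p = 5.93e-25). RPGRIP1, a protein of the connecting cilium, had 129, 205 and 386 CPM in S-cones and 374, 463 and 533 CPM in L-cones (-1.24 ± 0.11, SE). PROM1 and IMPG1 passed with log2 fold changes of -0.28 and -0.26, and kept their calls in 11 and 10 of 17 settings, library size not among them. ABCA4, the transporter that clears retinal from discs, had a mean of 1374 CPM in S-cones and 1199 CPM in L-cones (0.01 ± 0.07, SE).

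Of 26 genes of the photoreceptor synapse, 23 were tested, 4 were higher and 3 lower, beside 3.15% of all features higher and 4.82% lower, with a median of -0.15 against -0.08. SHANK3, a scaffold protein, had 173, 232 and 394 CPM (lowest, median, highest) in S-cones and 45.8, 79.2 and 108 CPM in L-cones (1.65 ± 0.16, SE). KALRN, an exchange factor of synapses, was higher by 1.28 ± 0.14 (SE), CACNA2D1, an auxiliary subunit of voltage-gated calcium channels, by 0.37 ± 0.07 (SE) and EGFLAM, pikachurin, which ties photoreceptor terminals to bipolar dendrites, by 0.30 ± 0.09 (SE). EGFLAM kept its call in 8 of 17 alternative settings, and CACNA2D1 in 16. CACNA2D1 had 3284 to 4087 CPM in S-cones and 2355 to 2758 CPM in L-cones. RIMS2, SYT1 and STX3 passed with log2 fold changes of -0.27, -0.26 and -0.37, and kept their calls in 13, 9 and 11 of 17 settings, library size not among them. PCLO, a scaffold of the ribbon's active zone, had a mean of 1497 CPM in S-cones and 1427 CPM in L-cones (-0.08 ± 0.08, SE).

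Of 23 channels, exchangers and transporters, 18 were tested, 4 were higher and 5 lower, beside 3.15% of all features higher and 4.82% lower, with a median of -0.20 against -0.08. KCNMA1, the large-conductance calcium-activated potassium channel, had 443, 781 and 1030 CPM (lowest, median, highest) in S-cones and 143, 284 and 414 CPM in L-cones (1.47 ± 0.14, SE, edgeR adjusted p = 1.68e-11), with no overlap. SLC6A11, a GABA transporter, had 133, 250 and 346 CPM in S-cones and 43.8, 72.7 and 182 CPM in L-cones (1.27 ± 0.14, SE), with overlap, and CACNA1D, a calcium channel, was higher by 0.34 ± 0.09 (SE), also with overlap, and kept its call in 13 of 17 settings. KCNQ5 was higher, and KCNH7, KCND2, KCNIP4 and SLC8A1 were lower; these 5 overlapped between the types. KCNQ5 kept its call in 8 of 16 settings, and KCNH7 in 15, KCND2 in 11, KCNIP4 in 16 and SLC8A1 in 9 of 17. None of the 4 tested stress genes (of 15) and neither of the 2 tested developmental RNA-binding proteins (of 5) passed in either direction. Of the other marker genes, 21 were tested, none was higher and CALB1, calbindin, was lower in S-cones, with means of 174 and 266 CPM (-0.73 ± 0.12, SE).

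Stage was tested within S-cones of the same 7 retinas, 2 infancy, 3 mature and 2 senile, with the Cell Ranger version in the model, to ask which genes changed over the TS lifespan. Few features passed, out of 3303 tested. For senile minus infancy 4 passed (0.121%), 1 higher and 3 lower, for mature minus infancy 2 passed (0.0606%), both higher, and for senile minus mature 2 passed (0.0606%), both lower; at an unadjusted p under 0.05 there were 156, 189 and 144. On simulated counts with the same design, changes were planted in features with a mean of 20 CPM or more. Those tested were 59 of 2-fold, 62 of 4-fold and 60 of 8-fold. The senile minus infancy test found 3.39%, 46.8% and 81.7% of them in that order and made 4 false calls. These false calls arose beside many planted changes, so they cannot be set against the calls here. How many of the real calls are false was not tested. INPP4B, a phosphatase that removes phosphate from inositol lipids, was the only gene symbol among the calls. It had 117 and 175 CPM in the S-cones of Infancy 4 and 5, 659, 585 and 693 CPM in Mature 1, 3 and 4, and 482 and 499.6 CPM in Senile 1 and 5. Infancy was below both later stages with no overlap. The log2 difference was 2.21 ± 0.27 (SE, edgeR adjusted p = 0.0365) for mature minus infancy and 1.77 ± 0.29 (SE, adjusted p = 0.102) for senile minus infancy. The same gene was 366 and 487 CPM in infancy L-cones and 600 to 1141 CPM in the later stages, and the senile minus infancy change did not differ detectably between the cone types (0.62 ± 0.28, SE, edgeR adjusted p = 0.871). INPP4B is among 5 genes that the study discussed with age in the L-cones of these samples, another cone type than tested here, so the list is not independent. Of the others, DACH1 had means of 565, 819 and 849 CPM in infancy, mature and senile S-cones, THRB 67.1, 96.7 and 101, MAML2 945, 881 and 974, and CADM2 2786, 3176 and 3661, and none of these 4 passed in any contrast within S-cones. The means in L-cones of the same retinas, in the same order and with no test, were 801, 1205 and 1246 CPM for DACH1, 679, 773 and 928 CPM for THRB, 702, 751 and 778 CPM for MAML2, and 2195, 2990.0 and 3164 CPM for CADM2.

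The remaining stage calls were noncoding features, chosen here after their values were seen because they are few. LINC-DDX10-8 was 2.49 and 0 CPM in infancy S-cones and 105 to 270 CPM in the 5 later ones. LINC-MAGEE1-4 was 468 and 601 CPM in infancy, 133 to 311 CPM in mature and listed at 0 in both senile S-cone sums, and LINC-RPL6-288 was 161 to 294 CPM in infancy and mature and at 0 in both senile sums. A count of 0 allows up to 57.8 CPM in Senile 1 and 11.7 CPM in Senile 5 (3 counts). In L-cones LINC-RPL6-288 was 191 to 291 CPM in infancy and mature retinas and 1.58 and 3.84 CPM in Senile 1 and 5. LINC-NHLRC2-1 was 177 and 189 CPM in infancy, 267, 6.76 and 0 CPM in Mature 1, 3 and 4, and 0 in senile S-cones. The other noncoding features had the same direction in L-cones, with infancy, mature and senile means of 4.08, 48.7 and 39.0 CPM for LINC-DDX10-8, 510.4, 94.7 and 35.4 CPM for LINC-MAGEE1-4, and 170.2, 64.0 and 3.90 CPM for LINC-NHLRC2-1. For LINC-MAGEE1-4 the senile minus infancy change differed between the cone types in the interaction test described below (-9.26 ± 2.05, SE, log2, edgeR adjusted p = 0.00501). That call was kept in 7 of 11 alternatives, over which the value ranged from -9.54 to -0.33. Senile L-cones held 29.9 to 40.8 CPM of LINC-MAGEE1-4, below the 57.8 CPM that a count of 0 allows in Senile 1. The cone types can thus not be told apart in that retina. None of the stage calls, INPP4B included, passed in every alternative setting; without Senile 5 no feature passed for senile minus infancy, and without Infancy 4 none for mature minus infancy.

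The senile minus infancy change was also compared between S-cones and L-cones as an interaction in edgeR. The model had the retina as a block and no term by which version could act differently on the cone types. Infancy 4, Infancy 5 and Senile 5 name Cell Ranger 7.0.1, and Senile 1 names 6.1.2. Their S-cone sums held 401406, 143126, 256210 and 51876 UMIs in that order. Stage was thus not separated from version and depth. The change was larger in S-cones for 8 of 12097 features (0.0661%) and smaller for 25 (0.207%), with 634 at an unadjusted p under 0.05. IL1RAPL1, a synaptic adhesion protein of the interleukin receptor family, was the only 1 of the 33 calls that held in all 11 alternatives. In S-cones it was 1271 and 1642 CPM in Infancy 4 and 5, 2323, 1734 and 1861 CPM in Mature 1, 3 and 4, and 1928 and 2935 CPM in Senile 1 and 5. In L-cones it was 131 and 340 CPM in infancy, 1101, 668 and 998 CPM in mature and 849 and 1543 CPM in senile retinas. S-cones were above L-cones in all 7 retinas, and the ratio of S-cones to L-cones was highest in both infancy retinas. The interaction was -1.86 ± 0.22 (SE, log2, adjusted p = 8.78e-14), and the change within S-cones, 0.75 ± 0.29 (SE), did not pass (adjusted p = 0.978). KCNMA1 also passed, with L-cone means of 166 CPM in infancy and 292 CPM in senile retinas against 886 and 737 CPM in S-cones (-1.10 ± 0.25, SE, adjusted p = 0.00573), but its call was lost in some alternatives, among them without Infancy 4 and by DESeq2. DESeq2 called 2 features in all. Leaving out an infancy or senile retina leaves 1 retina in that stage, and the calls changed. Without Infancy 4, Infancy 5 or Senile 5 most of the 33 calls were lost. Without Senile 1 most calls were larger in S-cones, the reverse of the main fit.

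**Figure D5:**
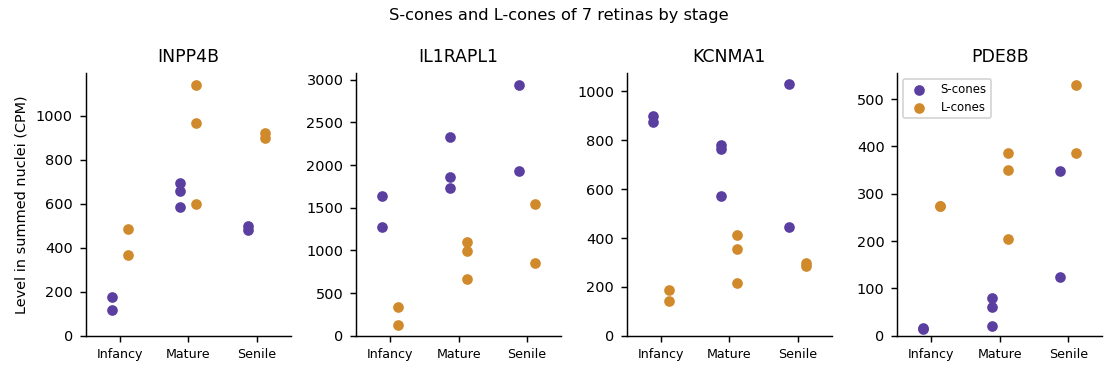
Points give the level (CPM, linear axis from 0) of INPP4B, IL1RAPL1, KCNMA1 and PDE8B in summed S-cones (purple) and L-cones (orange) of 7 retinas (2 infancy, 3 mature, 2 senile). INPP4B lies at 117 and 175 CPM in infancy S-cones and at 482 CPM or above later, and IL1RAPL1 is at 1271 CPM or above in every S-cone sum while L-cones start at 131 CPM.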

How the data were processed

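Nuclei of frozen retinas had been profiled with 10x Genomics 3′ chemistry. The authors ran Cell Ranger on the TS_3.0 assembly and deposited raw UMI counts per feature and barcode, not normalized (83605 features; numbered copies of a gene, antisense and LINC features are counted apart). The file headers name Cell Ranger 6.1.2 (7 retinas) or 7.0.1 (8 retinas), while the submitters' processing notes name 5.0.1 and 7.0.1; whether intron reads were counted is not given in the sources used here. Libraries held 13429873 to 58734300 UMIs over all deposited barcodes. The nuclei, gene lists and tests were chosen with earlier results of these data known. The study used 5 TSs per group, and each sample was taken as 1 animal.

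Counts were summed per retina and cell type (at least 10 nuclei) and tested with edgeR 4.0.16 (filterByExpr, TMM, quasi-likelihood F-test, Benjamini-Hochberg adjustment over all features tested; SE is the log2 fold change over the root of F). S-cones against L-cones had the retina as a block, and stage had the Cell Ranger version as covariate. Single values were tested by exact permutation. Named symbols were the 12 highest and 12 lowest log2 fold changes past an adjusted p of 0.05 with 1 direction in every retina and a mean of 50 CPM or more in the higher type, genes of fixed lists, stage calls with no overlap and 20 CPM or more, and up to 5 interaction calls in each direction. The planned control for free OPN1LW RNA was nuclei with 3 or more GAD1 and GAD2 UMIs; none exist, so TFAP2A nuclei replaced them after the data were seen. Doublets were marked by similarity to simulated doublets (scikit-learn 1.9.0, 8 per 1000 for every 1000 nuclei) and kept in the main tests. DESeq2 1.42.0, other thresholds, scalings, denominators and left-out retinas were alternatives. On simulated counts over 10913 genes, changes were planted only in genes with a mean of 20 CPM or more. Of these the S-cone against L-cone test found 80.6% of 2-fold, 97% of 4-fold and 100% of 8-fold changes, with 7 false calls. The sexes the study lists are not in the labels and entered an alternative only. Some members of the lists are not reported here.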

Additional observations from a re-analysis of the deposited data

Results flagged for a closer look

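The senile minus infancy change differed between S-cones and L-cones by the interaction test itself (edgeR, 2 retinas per stage) for the genes below, and no explanation was tested for any of them. The test did not separate stage from Cell Ranger version or depth. CDH20, TENM1, CDH18, SHROOM3 and PLPP3 were too low in S-cones to be among the 3303 features of the stage tests. They entered the interaction test through a filter on S-cone and L-cone sums together. IL1RAPL1 (adjusted p = 8.78e-14) and KCNMA1 (0.00573) are described above. PDE8B was 17.4 and 14.0 CPM in the S-cones of Infancy 4 and 5 and 347 and 125 CPM in those of Senile 1 and 5, a change that did not pass within S-cones (edgeR adjusted p = 0.157), against 274 CPM in both infancy retinas and 529 and 387 CPM in L-cones (interaction 2.73 ± 0.49, SE, log2, adjusted p = 5.57e-05). ADARB2 (1.91 ± 0.34, SE, adjusted p = 5.57e-05) was 839 CPM in the S-cones of Senile 5 and 0 in those of Senile 1, and PLPP3 (3.69 ± 0.90, SE, adjusted p = 0.0209) was 168 CPM in Senile 5 and 0 in Senile 1, so both rest on 1 retina. SHROOM3 (adjusted p = 0.0457) was 0 in both infancy S-cone sums and 38.6 and 54.6 CPM in the senile ones. It kept its call in 1 of 11 alternatives, ADARB2 in 6, PLPP3 in 7 and PDE8B in 9. Mature S-cones had 20.4 to 80.1 CPM for PDE8B, 27.2 to 463 for ADARB2, 0 to 10.1 for PLPP3 and 0 to 89.0 for SHROOM3.

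In the other direction, a count of 0 in Senile 1, whose S-cones held few UMIs, allows up to 57.8 CPM and in Senile 5 up to 11.7 CPM (3 counts), so for several genes below Senile 1 cannot be told apart from the infancy level. NXPH1 (adjusted p = 0.00352) was 89.7 and 14.0 CPM in infancy S-cones and 0 in both senile sums, and CSMD1 (adjusted p = 0.000145) was 62.3 and 55.9 CPM against 19.3 and 0 CPM. SGCZ (adjusted p = 0.000193) was 99.6 and 62.9 CPM against 0 and 3.90 CPM, CDH20 (adjusted p = 0.0147) 37.4 and 55.9 CPM against 0 and 3.90 CPM, and TENM1 (adjusted p = 0.0178) 44.8 and 55.9 CPM against 0 and 7.81 CPM. CNTN5 (adjusted p = 8.35e-09) was 149 and 440 CPM in infancy S-cones, 0 in Senile 1 and 125 CPM in Senile 5. CADM1 (adjusted p = 0.0114) was 149 and 97.8 CPM against 0 and 62.4 CPM, CDH18 (adjusted p = 0.0237) 67.3 and 62.9 CPM against 0 and 23.4 CPM, KCNH7 (adjusted p = 0.0421) 102 and 224 CPM against 19.3 and 74.2 CPM, and KCNIP4 (adjusted p = 0.0201) 112 and 126 CPM against 0 and 15.6 CPM. Of 11 alternatives, CDH18 and KCNH7 kept their calls in 4, TENM1 and KCNIP4 in 5 and CDH20 in 6. NXPH1, CSMD1, SGCZ and CADM1 kept theirs in 8, and CNTN5 in 10. The mature S-cone sums ranged from 8.90 to 367 CPM for NXPH1, 13.6 to 176 CPM for CSMD1 and 8.90 to 747 CPM for SGCZ. They ranged from 0 to 152 CPM for CDH20, 0 to 81.1 CPM for TENM1 and 17.8 to 362 CPM for CNTN5. For CADM1 they were 27.2 to 205 CPM, for CDH18 20.4 to 324, for KCNH7 17.8 to 240 and for KCNIP4 34.0 to 151 CPM. In each gene the lowest mature value was below both infancy values. In L-cones the infancy and senile means were 58.9 and 47.3 CPM for NXPH1, 66.7 and 103 CPM for CSMD1, 98.6 and 93.4 CPM for SGCZ, 37.1 and 48.1 CPM for CDH20, 57.5 and 80.9 CPM for TENM1, 90.3 and 197 CPM for CNTN5, 82.3 and 119 CPM for CADM1, 176 and 225 CPM for KCNH7, and 238 and 175 CPM for KCNIP4. CDH18 was 84.9 and 105 CPM in infancy and 115 and 156 CPM in senile L-cones. For ADARB2 the means were 193 and 295 CPM, for PLPP3 6.13 and 7.20 CPM and for SHROOM3 4.50 and 4.47 CPM. The summed bipolar markers were 125 to 384 CPM in infancy S-cones and 38.6 to 476 CPM in senile ones, and the amacrine markers 199 to 245 CPM and 77.1 to 351 CPM. Their part in these calls was not tested.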

How the results depend on the processing

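The stage results rest on few retinas and few nuclei (12 to 42 S-cones a retina), and the calls change with the settings; the causes were not tested. Without Infancy 4 the senile minus infancy share difference became 0.248 points, and mature minus infancy became -0.0256 without Infancy 3 and -0.730 without Mature 4. Leaving out retinas gave -1.68 to 0.248, -0.730 to 1.64 and, for senile minus mature, -2.34 to -0.00864 points.

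For S-cones against L-cones, 964 calls among 12097 features became 397 among the 3985 that could be tested with L-cones matched on UMIs (373 shared), 449 at an opsin threshold of 5 UMIs, 1426 at 2 UMIs, 1198 without a filter and 756 to 1130 without a retina. With no replicate block there were 540. Of 76 called genes that no gate read and that were followed through the settings, 50 kept their call in every setting that tested them. The interaction had 33 calls, 2 by DESeq2 and 10 to 52 without a retina. Most of the 33 calls were lost without Infancy 4, Infancy 5 or Senile 5. Without Senile 1 most calls were larger in S-cones, the reverse of the main fit. Each of these fits leaves 1 retina in a stage. Without a retina the interaction of 4 features changed sign. For ADARB2 it ranged from -10.72 (without Senile 5) to 2.73 and for RBMS3li1 from -7.20 (without Senile 5) to 3.80. For PLPP3 it ranged from -6.05 (without Senile 5) to 4.03 and for LINC-RPL21-273 from -10.36 to 2.56 (without Infancy 4).

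For senile minus infancy (4 calls) there were 7 with the study's sex, 11 by DESeq2, 96 without a filter, 13 without doublets, 2 at a threshold of 2 UMIs and 0 to 22 without a retina (0 without Senile 5). For mature minus infancy (2 calls) there were 6 with sex, 6 by DESeq2, 63 without a filter, 5 without doublets, 0 at 2 UMIs, 0 with at least 20 and 4 with at least 4 S-cones, and 0 to 23 without a retina (0 without Infancy 4). For senile minus mature (2 calls) there were 1 with sex, 59 without a filter, 5 with at least 20 and 1 with at least 4 S-cones, 0 at 2 UMIs and 0 to 6 without a retina. A replicate block on the number gave 14, 11 and 0 calls in the same order. Same-numbered retinas correlated at 0.267 (Infancy 4 and Mature 4), -0.00596 (Infancy 5 and Senile 5) and 0.267 (Mature 1 and Senile 1). Different-numbered ones ranged from -0.294 to 0.294. With 2 retinas in a stage the deviations from its mean mirror each other, so these correlations cannot decide a pairing. The numbers were not taken to pair the retinas. Stage tests at an opsin threshold of 5 UMIs could not be fitted. The TFAP2A control, the minimum of 4 S-cones and library size scaling were chosen after seeing the data.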
